A study of Mus musculus with 24 samples.

Results

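Lungs of mice that drank a mid dose of AEAA, a water extract made from the herb Artemisia argyi, and were then challenged with bacterial lipopolysaccharide (LPS) were compared with lungs of saline controls. The comparison holds every library that the labels assign to these groups, 5 mid-dose and 4 control libraries, which is 9 of the 24 in the series. Mid-dose mice took 1 mg/mL AEAA in their water over 28 days and received 5 mg/kg LPS into the trachea on day 29. Control mice took no extract and were given saline according to the protocol, although their sample characteristics list the LPS challenge too. All mice were wild-type C57BL/6, 7 weeks old, and each library, labelled as a biological replicate, is lung RNA taken 8 h after instillation. The mid-dose mice differed from controls in both extract and LPS, and no group of the series had extract without LPS, so against saline the parts of extract and LPS cannot be told apart. LPS alone (5 libraries), the low dose of 0.5 mg/mL plus LPS (5) and the high dose of 1.5 mg/mL plus LPS (5) serve below only to test where the mid dose differs from them.

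LPS, a cell wall component of Gram-negative bacteria, is sensed in the airways by TLR4 with CD14 and MD-2 and activates the NF-kB transcription factors, which switch on cytokines, neutrophil chemokines and their own inhibitors. Oxidants and electrophiles act through another factor, NRF2, which drives glutathione synthesis and NADPH supply. The lung also runs a circadian clock, in which BMAL1 with CLOCK or NPAS2 switches on E-box genes such as the PER, CRY and REV-ERB repressors and the PAR bZIP factors DBP, TEF and HLF. NFIL3 binds the same D-box sites as the PAR bZIP factors and opposes them.

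The authors measured RNA after ribosomal RNA removal and deposited TPM, the share of each library per gene after correction for length, so depth is unknown and no counting interval can be given. Levels below are scaled TPM, meaning TPM divided by a size factor of the library (median of ratios), and a change is a difference of log2(scaled TPM + 1), which understates the change of low genes. In each of the 9 libraries, 14996 to 16546 genes had a TPM of at least 1. The labels give male mice, but the female-specific transcript Xist was at 39.6 to 65 scaled TPM in all 9 libraries, while the Y-linked Ddx3y was at 0.0307 in control library 1 and listed at 0 in the other 8. The sex label and the transcripts thus disagree in both groups alike. The size factor was 0.754 ± 0.0707 (SD, n = 4) in control and 1.14 ± 0.0792 (SD, n = 5) in mid-dose libraries (two-sided exact permutation p = 0.0159, the smallest this design allows, and 0.0238 adjusted over 3 such values). It moved together with the share of Scgb1a1 given next.

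Scgb1a1, which club cells of the airways secrete in bulk, was the most abundant transcript to fall. It took 35.45%, 23.207%, 27.839% and 26.495% of all TPM in control libraries 1 to 4 and 6.436%, 5.135%, 5.781%, 2.512% and 5.063% in mid-dose libraries 1 to 5. Every mid-dose library lay below every control library. In whole tissue fewer cells of a type and less RNA per cell cannot be told apart. The mean share was 28.2% ± 5.18 (SD, n = 4) in control and 4.99% ± 1.49 (SD, n = 5) in mid-dose lungs, a difference of -23.3 percentage points (two-sided exact permutation p = 0.0159, the smallest possible, and 0.0238 adjusted over the 3 single values tested). Mitochondrial transcripts took 6.76% ± 0.947 (SD, n = 4) of TPM in control and 5.25% ± 0.758 (SD, n = 5) in mid-dose lungs (two-sided exact permutation p = 0.0476, and 0.0476 adjusted), with overlap between the groups (5.366% to 7.356% and 4.343% to 6.2%). On the scaled level Scgb1a1 fell by 3.16 on the log2 scale (SE 0.31, adjusted p = 5.1e-06).

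Of 17823 genes tested with limma over all 24 libraries, 5015 (28.1%) passed an adjusted p of 0.05 between mid dose and control, 2618 (14.7%) higher and 2397 (13.4%) lower. All mid-dose libraries were above all controls for 3025 genes (17.0%) and below them for 2595 (14.6%). The median change of all genes was 0.01. In the TPM as deposited the median was 0.50 and the split was 9507 higher and 262 lower. Upper-quartile scaling gave 2099 higher and 3055 lower. Directions below are therefore relative to the median gene. Without control library 1 the counts were 1755 and 1455. An absolute change of 1 or more was reached by 476 of the higher and 437 of the lower genes.

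The 3 largest increases among called genes without overlap were in Gsta13, Gsta1 and Slc7a11, genes of glutathione metabolism. Gsta13, an alpha-class glutathione transferase, was at 1.87, 0.405, 1.31 and 1.42 scaled TPM in control libraries 1 to 4 and at 138, 33, 27.2, 191 and 89.5 in mid-dose libraries 1 to 5. The rule that named it required all mid-dose libraries to lie above all controls, and libraries 1 and 4 were the highest. It rose by 5.10 (SE 0.68, adjusted p = 6.6e-05). Gsta1, its close relative, was at 0.982 to 3.14 in control and at 130, 28.2, 28.7, 175 and 74.8 in mid-dose libraries, and rose by 4.50 (adjusted p = 0.00019). The alpha-class genes are near-identical copies, so how reads were divided between them is uncertain. Slc7a11, which imports cystine for glutathione synthesis, went from 0.261, 0.209, 0.234 and 0.307 to 11.1, 20.8, 9.65, 13.9 and 11.1, a rise of 3.46 (SE 0.36, adjusted p = 9.8e-06). Uchl1, a ubiquitin hydrolase best known from neurons, went from 6.04 to 8.05 in control to 82.7, 41.5, 37.9, 86.2 and 69.5 (2.93, adjusted p = 2.5e-06). Cd177, a surface protein of neutrophils, went from 3.83 to 6.49 to 18.3, 56.4, 56.7, 21.6 and 79.9 (2.81, adjusted p = 0.00067). The epithelial cytokine Il36g, at 0.921 to 1.56 in control, reached 6.87, 123, 31.6, 5.98 and 45.7 (3.44, adjusted p = 0.01), with libraries 2, 3 and 5 the highest.

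Of 23 measured NRF2 targets, 10 rose and 1 fell, with a median change of 0.58. Of all genes tested, 14.7% were called higher. The count of 10 was the same without any single one of the 9 libraries. The glutathione and thioredoxin branch held Gclc, the catalytic subunit of glutathione synthesis (69.3 ± 1.74 in control, n = 4, and 103 to 199 in mid-dose libraries, change 1.04), Srxn1, which reduces peroxiredoxins (1.74), Txnrd1, thioredoxin reductase (0.79), and Gsr, glutathione reductase (1.15). The NADPH branch held G6pdx (1.33, adjusted p = 2.6e-05), Pgd (1.00, adjusted p = 8.2e-05) and Taldo1 (0.92, adjusted p = 3.2e-05), enzymes of the pentose phosphate pathway. Hmox1, which degrades heme, was at 28.8 to 33.5 in control and at 51.7, 211, 136, 84.4 and 226 in mid-dose libraries (1.93, adjusted p = 0.014). Mid-dose libraries 2, 3 and 5 were the highest for Hmox1, whereas libraries 1 and 4 were the highest for Srxn1 (57.4 and 96.9 against 26.4 to 53.8). Members that did not pass included Nfe2l2, which encodes NRF2 itself (-0.03, adjusted p = 0.88), Gclm, the modifier subunit of glutathione synthesis (0.14, adjusted p = 0.77), and Nqo1, a quinone reductase, at 24.6 and 23.9 in libraries 1 and 4 but 11.1 to 13.2 in the others (0.58, adjusted p = 0.17). Gsta3 fell (-0.79, adjusted p = 0.0058).

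A promoter window of Txnrd1 holds the letters of the antioxidant element, the kind of sequence through which NRF2 is known to act. It is printed here as an example from a gene above every control in all 5 mice, from the RefSeq table of promoters (250 bases before to 50 after an annotated start, build GRCm38.p6, chr10:82858956-82859255, plus strand, window 2 of 3 for this gene), with the letters TGACNNNGC, searched on both strands, in capitals.
Txnrd1: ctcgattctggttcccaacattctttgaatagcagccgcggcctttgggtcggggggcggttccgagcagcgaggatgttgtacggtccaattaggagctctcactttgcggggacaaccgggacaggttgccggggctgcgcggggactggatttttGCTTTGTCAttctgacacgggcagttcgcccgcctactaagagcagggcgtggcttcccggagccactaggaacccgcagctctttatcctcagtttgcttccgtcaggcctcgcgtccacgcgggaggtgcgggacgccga
The match begins 92 bases before the start. These letters stood in 9 of 25 windows (36.0%) of the 19 of 23 NRF2 targets with an entry, against 12.4% of all 32851 windows, and a match is a description, not a site. The other 2 windows of Txnrd1 and those of Slc7a11 and Gsta1 hold no match, while that of Gclm, which did not pass, holds 1.

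Genes of the unfolded protein and amino acid stress response rose too. All mid-dose libraries were above all controls for 12 of 17 and below them for 1, against 17.0% and 14.6% of all genes. Of 17 measured, 10 rose and 1 fell (median 0.80), between 9 and 12 rising when any single one of the 9 libraries was left out. Of all genes tested, 14.7% were called higher and 13.4% lower. Phgdh and Psat1 catalyse the opening steps of serine synthesis. Phgdh was at 6.53, 6.13, 5.62 and 6.67 in control libraries and at 19.3, 20.2, 18.4, 36.2 and 23.5 in mid-dose libraries (1.72, SE 0.20, adjusted p = 2.4e-05), so the groups were far apart and library 4 stood highest. Psat1 went from 5.89 to 6.98 in control to 13.3, 16, 15.2, 22 and 21 (1.32, adjusted p = 0.00029). Sdf2l1 and Hspa5 encode chaperones of the endoplasmic reticulum. Sdf2l1 went from 20.7, 15, 12.7 and 17.4 to 46.5, 81.2, 61.9, 66.3 and 50.5 (1.83, adjusted p = 0.00032), and Hspa5 from 200 ± 7.19 (n = 4) to 373 to 570 (1.24, adjusted p = 0.0001). Asns, asparagine synthetase (0.80), Trib3, a pseudokinase induced under stress (1.04), and Chac1, which degrades glutathione (0.82), rose as well. Herpud1, a component of endoplasmic reticulum degradation, fell (-0.53, adjusted p = 0.014). Of 16 immediate early genes only 1 rose, a share below the 14.7% of all genes. It was the growth regulator Myc, from 4.92 to 6.51 in control to 13.1, 19.5, 19.4, 23.1 and 34.2 (1.76, adjusted p = 0.00021). Among other enzymes, Cpt1a, which brings fatty acids into mitochondria, went from 24.1 to 38.4 to between 52.5 and 62.8 (1.01, adjusted p = 9.7e-05).

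**Figure D1:**
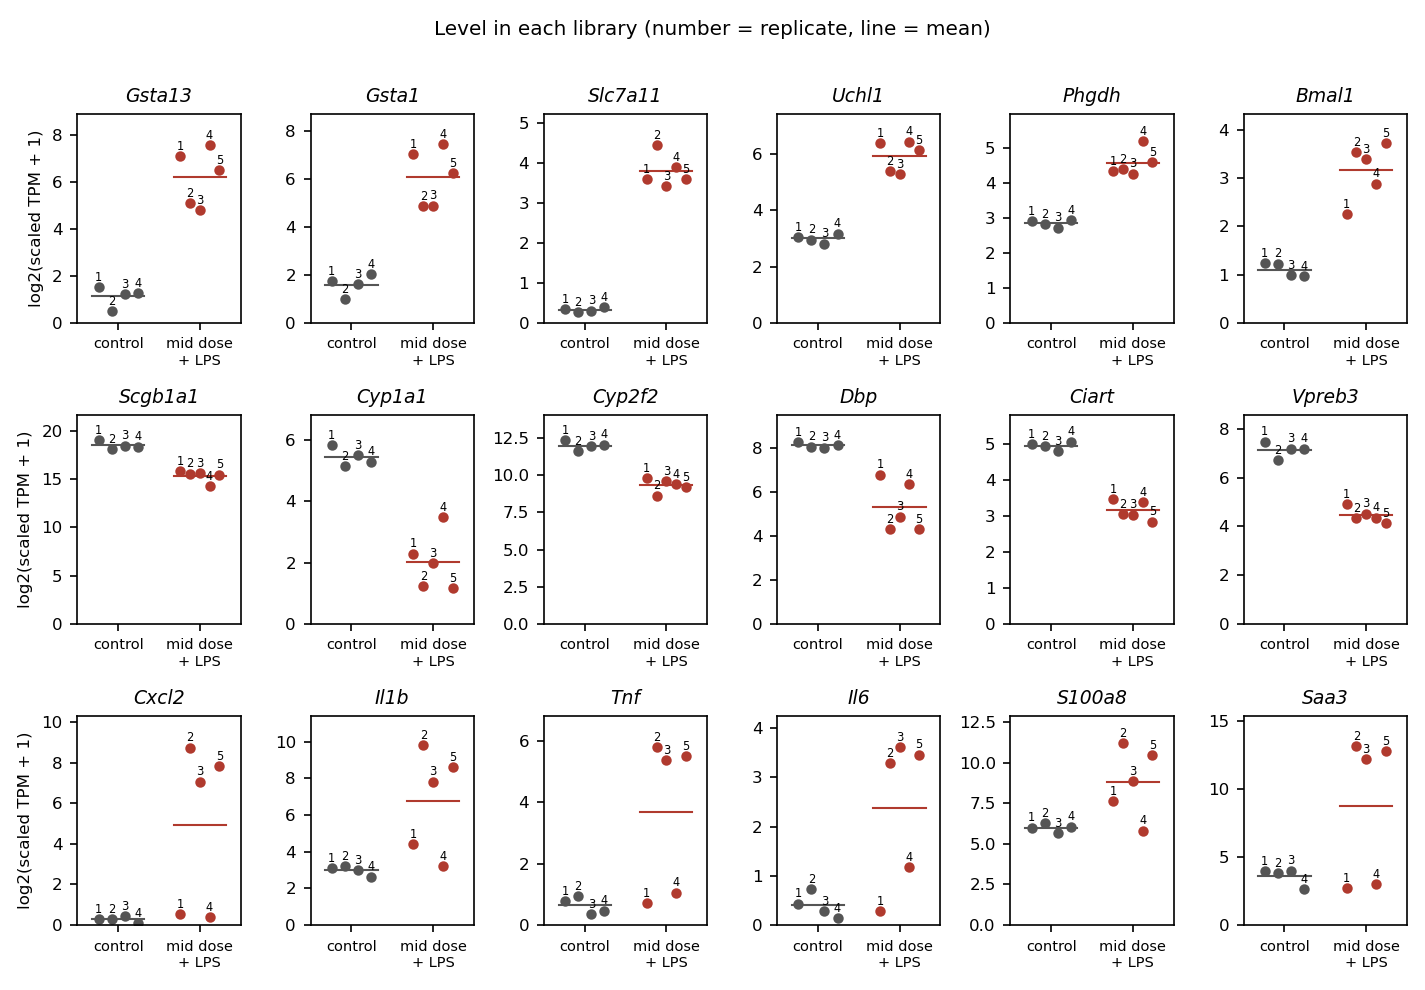
Level of 18 genes in each of the 4 control and 5 mid-dose libraries, as log2(scaled TPM + 1) on the y axis, with numbers giving the replicate and lines the mean of each group. The 12 genes of the upper rows do not overlap between groups, while for the 6 inflammatory genes of the bottom row mid-dose libraries 2, 3 and 5 are high and libraries 1 and 4 are the closest to the controls.

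The clock activators Bmal1, Clock and Npas2 rose, and most clock repressors and PAR bZIP outputs fell. Of 8 clock activators and morning-phase genes 4 rose, the D-box repressor Nfil3 among them, and 2 fell. Of 13 clock repressors and PAR bZIP outputs 9 fell and none rose (median -1.22, against 0.01 for all genes). Among all genes tested 14.7% were called higher and 13.4% lower. The counts of 4 rises and 9 falls were the same without any single one of the 9 libraries. In the TPM as deposited 5 of the 13 fell and 1 rose. Bmal1, the core activator, was at 1.35, 1.34, 0.974 and 0.948 in control and at 3.79, 10.6, 9.52, 6.39 and 12.2 in mid-dose libraries, a rise of 2.06 (SE 0.36, adjusted p = 0.00047). Its partners Clock (5.65 ± 0.271 in control, n = 4, and 10.4 to 11.3 in mid-dose libraries, change 0.82, adjusted p = 3.9e-05) and Npas2 (0.521 to 0.974, and 1.77 to 3.63, change 1.08, adjusted p = 0.003) rose too. Nfil3 went from 2.22, 2.31, 3.29 and 3.69 to 6.34, 26.8, 17.3, 11.1 and 29.4 (2.14, adjusted p = 0.0046). All mid-dose libraries were above all controls for these 4 of the 8 genes, against 17.0% of all genes. Library 1 was the lowest of them for Bmal1, Npas2 and Nfil3.

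Dbp, a PAR bZIP factor, was at 313, 271, 261 and 285 in control and at 111, 18.9, 28.6, 82.3 and 19.1 in mid-dose libraries, and fell by 2.80 on the log2 scale (SE 0.73, adjusted p = 0.0079). Libraries 1 and 4 kept the most Dbp, but still lay below every control. Hlf, of the same family, went from 19.2 to 31.4 to 10.3, 2.62, 3.6, 8.02 and 4.34 (-1.96, adjusted p = 0.0033), and Tef from 183 ± 20 (n = 4) to between 57.7 and 103 (-1.08, adjusted p = 0.0053). Ciart, a repressor of CLOCK and BMAL1, went from 30.9, 29.8, 26.9 and 32.5 to 10.1, 7.3, 7.22, 9.42 and 6.17 (-1.79, SE 0.34, adjusted p = 0.001). Per3 (33 ± 1.28, n = 4, to between 5.65 and 13.7, change -1.73), Per2 (-1.12), the REV-ERB beta gene Nr1d2 (-1.46), the E-box repressor Bhlhe41 (-1.45) and the clock-controlled protease Usp2 (-1.22) fell as well. Nr1d1, which encodes REV-ERB alpha, did not pass: it was at 133 to 142 in control and at 152, 41.5, 74.9, 149 and 37.5 in mid-dose libraries, so libraries 1 and 4 lay above all controls and the other 3 below them (-0.82, adjusted p = 0.35). Per1, Cry2 and Bhlhe40 did not pass either (adjusted p = 0.33, 0.16 and 0.18). Of the 8 activators 2 fell, among them Rora, which binds the same elements as REV-ERB, by 0.36 on the log2 scale, and the count was 1 without mid-dose library 2, 4 or 5 or control library 2, 3 or 4. The labels used here give no hour of collection.

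Promoter windows of 4 of the falling genes are printed because they hold the sequences through which the clock is known to act, the E-box CACGTG in Ciart (chr3:95882179-95882478, minus strand), Tef (chr15:81802423-81802722, plus strand, window 1 of 2) and Bhlhe41 (chr6:145865371-145865670, minus strand), and the D-box TTATGTAA in Per3 (chr4:151044616-151044915, minus strand). They come from the same RefSeq table (GRCm38.p6), run in the direction of the gene, and carry the motif in capitals.
Ciart: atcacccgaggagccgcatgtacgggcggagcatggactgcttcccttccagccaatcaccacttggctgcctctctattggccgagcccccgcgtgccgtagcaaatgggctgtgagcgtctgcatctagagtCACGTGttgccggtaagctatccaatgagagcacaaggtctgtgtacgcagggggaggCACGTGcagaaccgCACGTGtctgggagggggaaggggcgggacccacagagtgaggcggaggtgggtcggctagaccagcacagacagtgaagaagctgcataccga
Tef: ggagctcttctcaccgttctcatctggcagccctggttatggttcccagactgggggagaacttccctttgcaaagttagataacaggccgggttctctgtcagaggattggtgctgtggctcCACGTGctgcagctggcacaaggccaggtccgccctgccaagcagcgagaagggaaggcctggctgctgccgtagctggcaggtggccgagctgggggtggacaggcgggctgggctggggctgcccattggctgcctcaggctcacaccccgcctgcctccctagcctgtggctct
Bhlhe41: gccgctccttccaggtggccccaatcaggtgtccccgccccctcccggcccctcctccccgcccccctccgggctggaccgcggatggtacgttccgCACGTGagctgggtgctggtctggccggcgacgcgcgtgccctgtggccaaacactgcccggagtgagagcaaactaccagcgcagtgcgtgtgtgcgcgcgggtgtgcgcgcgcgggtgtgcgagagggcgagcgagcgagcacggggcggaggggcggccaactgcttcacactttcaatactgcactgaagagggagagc
Per3: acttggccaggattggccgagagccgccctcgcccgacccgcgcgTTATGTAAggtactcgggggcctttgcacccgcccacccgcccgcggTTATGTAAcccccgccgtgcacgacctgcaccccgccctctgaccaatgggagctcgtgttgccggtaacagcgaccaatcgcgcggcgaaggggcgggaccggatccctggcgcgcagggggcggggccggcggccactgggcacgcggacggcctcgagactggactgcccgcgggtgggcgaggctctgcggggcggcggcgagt
Ciart holds 3 E-boxes, which begin 116, 58 and 44 bases before the start, and Per3 holds 2 D-boxes at 205 and 158 bases before it. An E-box stood in 5 of 13 windows (38.5%) of the 11 of 13 clock repressors and PAR bZIP outputs with an entry, and in 1 of 10 windows of the activators, against 7.15% of all windows. Windows 1 and 2 of Tef each hold an E-box, as does window 1 of Per1, which did not pass. The D-box stood in 1 of the 13 windows and in 0.938% of all. The windows of Dbp and Hlf, which both fell, hold neither motif.

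**Figure D2:**
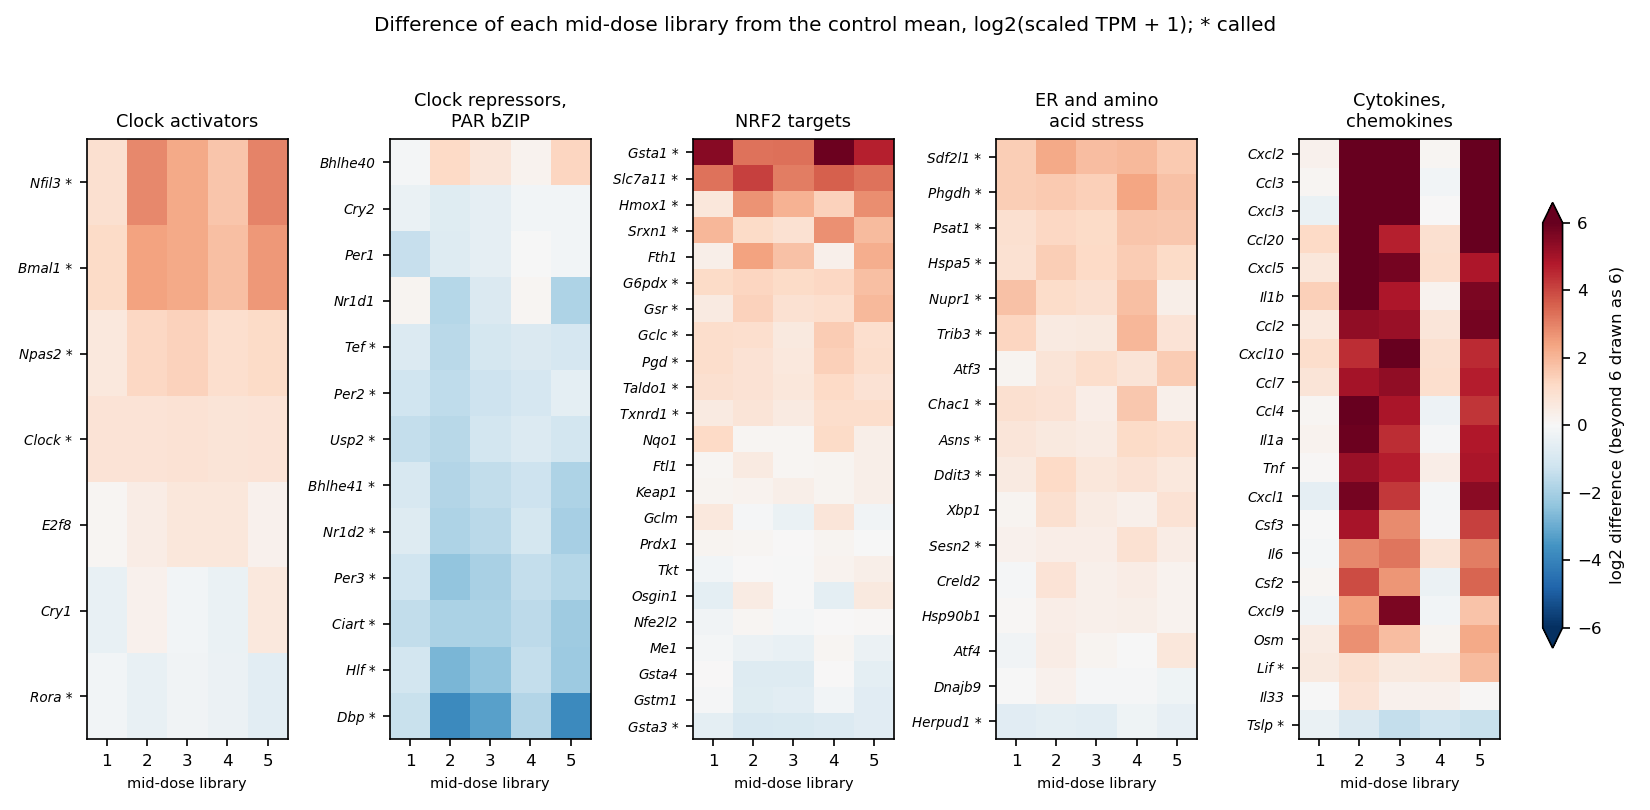
Difference of each mid-dose library from the control mean, in log2(scaled TPM + 1), for the reported members of 5 lists (columns, libraries 1 to 5; rows, genes; asterisk, adjusted p under the threshold of 0.05). Differences beyond 6 are drawn as 6. Most cytokines are near 0 in libraries 1 and 4 and strongly higher in 2, 3 and 5.

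Cytokines and chemokines differed more within the mid-dose group than any of the lists above. Cxcl2, a neutrophil chemokine, was at 0.215, 0.233, 0.351 and 0.0768 in control libraries and at 0.458, 429, 133, 0.314 and 224 in mid-dose libraries 1 to 5. Libraries 2, 3 and 5 were thus far above control, while libraries 1 and 4 were within or next to the control range. With this spread the change of 4.63 (SE 2.24) did not pass (adjusted p = 0.12). The inflammasome cytokine Il1b was at 5.24 to 8.29 in control and at 20.2, 890, 225, 8.26 and 391 (3.78, adjusted p = 0.063), and Tnf at 0.286 to 0.933 and at 0.634, 54.9, 40.3, 1.08 and 44.7 (3.05, adjusted p = 0.1). Il6 was at 0.102 to 0.663 and at 0.22, 8.81, 11.2, 1.27 and 10 (1.97, adjusted p = 0.12). Saa3, an acute-phase protein made in the lung, was at 5.33 to 14.9 and at 5.54, 9180, 4610, 7.15 and 7010 (5.17, adjusted p = 0.18). Libraries 2, 3 and 5 were the high ones for each of these genes.

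Of 21 cytokines and chemokines 1 rose, which is below the background of 14.7%, and 1 fell, although their median change was 3.05. The one that rose was Lif, an IL-6 family cytokine, from 1.04 to 2.48 to 2.8, 3.97, 2.82, 2.91 and 8.57 (0.92, adjusted p = 0.046). Tslp, an epithelial cytokine of allergic inflammation, fell in all 5 mice, from 5.54 to 7.1 to 4.56, 3.05, 1.71, 2.18 and 1.88 (-1.04, SE 0.24, adjusted p = 0.0036), a call that was lost in the TPM as deposited. The count of rises was 7 without mid-dose library 1, 6 without mid-dose library 4, and 0 without mid-dose library 2 or 5 or control library 2, 3 or 4. It was 0 without a filter, 1 with upper-quartile scaling, 8 in a fit of the 2 groups alone and 10 in the TPM as deposited. It was 18 without mid-dose libraries 1 and 4 together, a setting chosen after seeing the data, and 19 with quality weights. Of all 17823 genes 3284 were called higher in the 2-group fit, 9507 as deposited, 3043 without both libraries and 4455 with quality weights. The other challenged groups held libraries of both kinds. Cxcl2 was at 240, 1.06, 40.1, 0.0712 and 163 with LPS alone, at 0.595, 281, 334, 280 and 296 at the low dose and at 0.405, 203, 362, 0.382 and 355 at the high dose.

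The promoter of Cxcl2 is printed for its letters of an NF-kB site (3 G and 2 C with any 5 bases between them), searched on both strands and in capitals (RefSeq, GRCm38.p6, chr5:90903649-90903948, plus strand).
Cxcl2: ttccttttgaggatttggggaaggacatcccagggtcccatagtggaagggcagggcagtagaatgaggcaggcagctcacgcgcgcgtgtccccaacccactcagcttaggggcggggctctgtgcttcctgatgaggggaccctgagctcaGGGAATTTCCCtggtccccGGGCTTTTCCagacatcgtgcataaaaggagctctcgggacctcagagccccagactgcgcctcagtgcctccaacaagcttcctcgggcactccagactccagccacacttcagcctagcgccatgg
It holds 3 matches, 2 of them overlapping, which begin 97, 96 and 78 bases before the start. Such letters stood in 10 of 15 windows (66.7%) of the 14 of 21 cytokines and chemokines with an entry and in 50.8% of all windows. They were more frequent in the other lists searched, at 92.3% for clock repressors and PAR bZIP outputs, 80.0% for clock activators and 76.0% for NRF2 targets.

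Among components of LPS sensing, the subunit Nfkb2 and its partner Bcl3 were above every control in all 5 mice. Of 24 genes of LPS sensing and NF-kB, 12 rose and none fell (median 0.69), against 14.7% of all genes called higher. The count of rises was 6 without mid-dose library 5 and 7 without control library 1. The receptor Tlr4 rose by 0.93 (5.08 ± 0.27 in control, n = 4, and 7.68 to 15.8 in mid-dose libraries, adjusted p = 0.0084), and the adaptor Myd88 by 1.17 (adjusted p = 0.02). The kinase Irak1 rose by 0.65, with 25.2 ± 1.65 (n = 4) in control and 37.2 to 45.1 in mid-dose libraries (adjusted p = 0.00058). Nfkb2, an NF-kB subunit, was at 11.5, 13, 11.8 and 13.4 in control and at 21.9, 73.4, 50.3, 32 and 80.5 (1.82, adjusted p = 0.0096), and Bcl3, a nuclear partner of that subunit, at 9.44 to 11 and at 22.9, 60, 44.2, 31.6 and 65.9 (1.98, adjusted p = 0.0029). Libraries 1 and 4 were again the lowest for both genes, but lay above every control. The co-receptor Cd14 (39.6 ± 5.54 in control, n = 4, and 54.5, 676, 256, 65 and 465, adjusted p = 0.051), the inhibitor Nfkbia (adjusted p = 0.31) and Ly96, which encodes MD-2 (adjusted p = 0.81), did not pass.

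Of 13 feedback inhibitors tested of 14, 5 rose (median 1.47), against 14.7% of all genes called higher. That count was 1 to 3 without mid-dose library 2 or 5 or control library 1, 2 or 3. Socs3, which blocks cytokine receptor signalling, was at 16 to 18.5 in control and at 33.4, 216, 128, 36.9 and 191 (2.37, adjusted p = 0.018, lost without mid-dose library 5). Il4ra, the IL-4 receptor chain, was at 22.8 to 29.2 and at 44, 104, 77.2, 47.9 and 114 (1.47, adjusted p = 0.0087). Of 15 acute-phase proteins tested of 16, 3 rose (median 1.86), a share near the 14.7% of all genes. Serpina3n, a protease inhibitor, was at 39.8, 32.2, 35.6 and 33.9 in control and at 99.1, 636, 518, 131 and 703 (3.12, SE 0.76, adjusted p = 0.0053). Serpina3n has close copies, so how reads were divided among them is uncertain. The acute-phase count was 5 without mid-dose library 1 or 4 and 1 without mid-dose library 2, 3 or 5 or control library 2, 3 or 4. It was 1 without a filter, 9 in the TPM as deposited, and 11 with quality weights or without mid-dose libraries 1 and 4 together. Of 22 interferon-stimulated genes 3 rose (13.6% were called, near the background). Mid-dose library 3 was the highest for all 3, with Stat2, a signal transducer of the interferon receptors, at 75.1 against 20.8 to 33.4 in the other mid-dose libraries (1.11, adjusted p = 0.022, lost without that library or control library 1). The interferon count was 7 without mid-dose library 1 or 4, 0 without library 3 and 1 without any single one of the others. It was 0 without a filter, 7 in a fit of the 2 groups and 11 without mid-dose libraries 1 and 4 together. With quality weights it was 18, and in the TPM as deposited 19.

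Of 11 leukocyte adhesion genes tested of 12, 7 rose (median 1.44), against 14.7% of all genes called higher. That count was 3 or 4 without mid-dose library 2, 3 or 5 or control library 1, 3 or 4. The beta-2 integrin chain Itgb2 was at 19.2 to 26.9 in control and at 52.8, 121, 112, 52.5 and 138 (1.98, adjusted p = 0.019), and its partner Itgal at 9.35 to 12.6 and at 22, 48, 34.3, 22.1 and 47.2 (1.57, adjusted p = 0.011). Among 18 neutrophil markers tested of 20, 4 rose and 1 fell (median 2.51), not far from the 14.7% of all genes called higher. The count of rises was 10 without mid-dose library 4 and 1 or 2 without mid-dose library 2 or 5 or control library 3. It was 2 without a filter, 14 without mid-dose libraries 1 and 4 together, and 15 with quality weights or in the TPM as deposited. Csf3r, the receptor of granulocyte colony-stimulating factor, was at 4.83 to 6.7 in control and at 17.1, 117, 51.3, 12.1 and 107 (2.68, adjusted p = 0.014). Cxcr2, the receptor of Cxcl2, was at 1.21 to 1.74 and at 6.65, 45.3, 17, 4.01 and 38.5 (2.79, adjusted p = 0.018, lost without mid-dose library 5). S100a8, a neutrophil alarmin, was at 50.3 to 76.2 and at 199, 2350, 467, 55.2 and 1420, with library 4 within the control range (2.80, adjusted p = 0.09). The granule genes Elane and Mpo were at or near 0 in all 9 libraries. Summed over the list, neutrophil markers were at 492 to 567 scaled TPM in control and at 1040, 18100, 7410, 556 and 16300 in mid-dose libraries.

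Among 17 monocyte and recruited macrophage markers 5 rose (median 1.62), against 14.7% of all genes called higher. Cd68, a lysosomal protein of macrophages, was at 23.7, 20, 15.6 and 16.1 in control and at 50.9, 127, 139, 64.2 and 122 (2.27, SE 0.52, adjusted p = 0.0035). The count was 9 and 8 without mid-dose libraries 1 and 4 in turn, and 1 or 2 without any other single library. Of 14 alveolar macrophage markers 3 rose (median 0.54), a share near the 14.7% of all genes and a count that was 0 or 1 without mid-dose library 3 or control library 1, 3 or 4. That count was 1 without a filter, 6 with quality weights and 9 in the TPM as deposited. Of 16 T and NK cell markers 2 rose, a share below the 14.7% of all genes, Prf1 and Ncr1, a killer cell protease partner and receptor, by 1.28 and 0.94, the call of Ncr1 being lost without mid-dose library 2 or control library 1. None of 11 B and plasma cell, 8 platelet and 5 mast cell markers tested passed. The exception among genes linked to B cells was Vpreb3, a pre-B cell receptor chaperone outside that list, which fell from 176, 103, 144 and 144 to 29.3, 19.4, 21.9, 19.5 and 16.7 (-2.67, SE 0.31, adjusted p = 2.6e-05), below every control in all 5 mice.

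**Figure D3:**
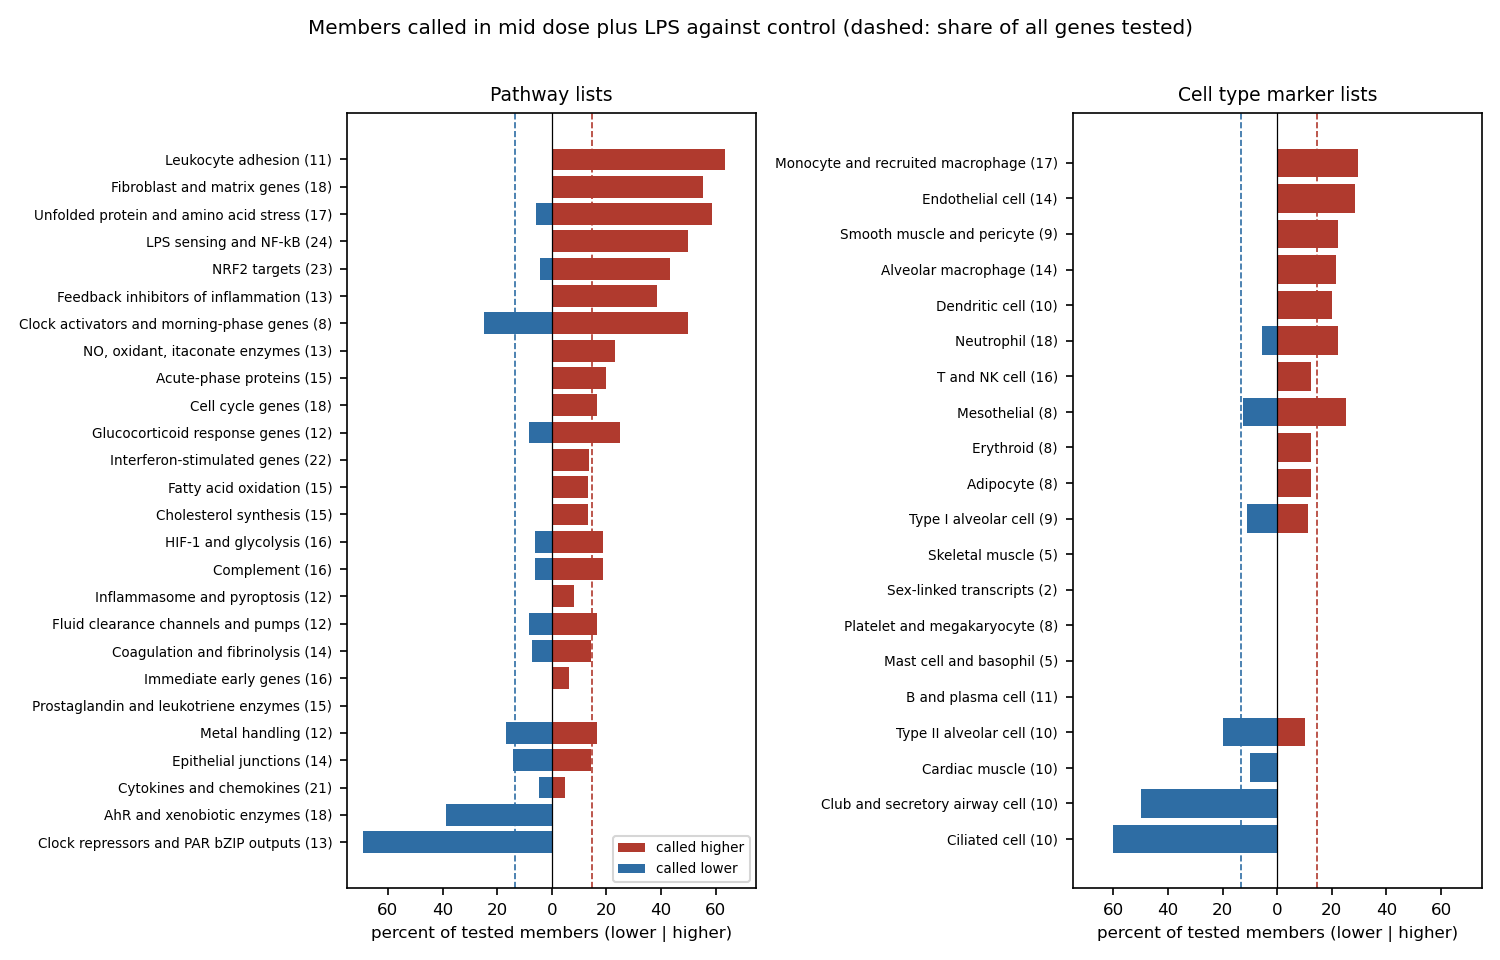
Percent of the tested members of 26 pathway and 20 marker lists (number tested in brackets) that were called higher (to the right) or lower (to the left) in mid-dose plus LPS lungs against control. Dashed lines mark the shares of all genes tested, 14.7% higher and 13.4% lower; clock repressors and ciliated markers reach farthest to the left.

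All mid-dose libraries were below all controls for 5 of 10 club and secretory cell markers, against 14.6% of all genes. Of 10 club and secretory cell markers 5 fell and none rose (median -1.39), against 13.4% of all genes called lower. The count of falls was the same without any single library and 4 in the TPM as deposited. Scgb3a2, another secretoglobin, was at 10200, 5080, 8620 and 7010 in control and at 2270, 431, 1040, 1060 and 418 (-3.13, adjusted p = 0.0027). Cyp2f2, the club cell cytochrome, was at 5160, 3110, 4000 and 4260 and at 902, 391, 776, 683 and 590 (-2.66, adjusted p = 0.00047). Of 10 ciliated cell markers 6 fell (median -0.96), against the same 13.4% of all genes. That count was 2 without control library 1 and 0 in the TPM as deposited. Dynlrb2, a dynein light chain of cilia, was at 429, 246, 303 and 288 and at 182, 94.8, 118, 123 and 93.7 (-1.38, adjusted p = 0.0037). Foxj1, the master regulator of cilia, was at 97.7 ± 23.8 (n = 4) and at 53.6 to 108 and did not pass (-0.29, adjusted p = 0.43). Summed over the lists, club markers were at 299000 to 566000 in control and 24100 to 63100 in mid-dose libraries, and ciliated markers at 1180 to 1830 and 536 to 990.

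Alveolar cell markers were called about as often as all genes (28.1%). Of 10 type II cell markers 1 rose and 2 fell (median -0.13). Abca3, which loads surfactant lipid, rose from 56.8 to 65.4 to between 78.5 and 131 (0.76, adjusted p = 0.0029), while surfactant protein C (Sftpc) was at 43400 to 49700 in control and at 28300, 7520, 18900, 26200 and 8340 in mid-dose libraries (-1.56, adjusted p = 0.045). The call of Sftpc was lost in the TPM as deposited and without any single library other than mid-dose library 1 or 4. Of 9 type I cell markers, Emp2, a membrane protein, rose (0.62, lost with upper-quartile scaling and without mid-dose libraries 1 and 4) and Hopx, a transcriptional cofactor, fell (-0.65, adjusted p = 0.013, lost in the TPM as deposited). In the TPM as deposited 6 of the 9 type I markers were higher and none lower. Among 14 endothelial markers 4 rose (median 0.06), against 14.7% of all genes called higher. VE-cadherin (Cdh5) was at 159 to 208 in control and 275 to 347 in mid-dose libraries (0.69, adjusted p = 0.0021). The endothelial count was 1 without mid-dose library 5 or control library 1 and 2 without mid-dose library 3.

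Enzymes that handle foreign compounds fell along with the airway markers, with which the list shares Cyp2f2 and Aldh1a1. Of 18 xenobiotic genes tested of 19, 7 fell and none rose (median -0.72), against 13.4% of all genes called lower. In the TPM as deposited 5 were lower and 6 higher. Cyp1a1, the textbook target of the aryl hydrocarbon receptor, was at 56.6, 34.3, 44.3 and 38.3 in control and at 3.9, 1.34, 2.96, 10.3 and 1.26 (-3.41, SE 0.58, adjusted p = 0.00042), the largest fall named here. Cyp2a5 fell by 2.63 on the log2 scale (adjusted p = 0.0053) and Pon1, paraoxonase, by 3.25 (adjusted p = 0.0014). Other members of the aryl hydrocarbon receptor set did not pass, among them Ahr (0.15, adjusted p = 0.62), Cyp1b1 (0.36, adjusted p = 0.35) and Tiparp (-0.03, adjusted p = 0.89).

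Genes of the extracellular matrix rose. All mid-dose libraries were above all controls for 11 of 18, against 17.0% of all genes. Of 18 fibroblast and matrix genes 10 rose and none fell (median 0.94), against 14.7% of all genes called higher. Between 10 and 12 rose without any single library. Spon2, a secreted matrix protein, was at 4.72, 4.38, 3.04 and 2.86 in control and at 18, 30.9, 18.7, 30.6 and 12.1 (2.22, SE 0.31, adjusted p = 8.4e-05). Elastin (Eln) was at 28.7 to 52.2 and at 62.7, 176, 237, 101 and 192 (1.92, adjusted p = 0.01). The basement membrane collagen Col4a1 was at 71.3 to 103 and at 155, 369, 350, 206 and 512 (1.75, adjusted p = 0.012), and the fibrillar Col1a1 at 47.6 ± 8.85 (n = 4) and at 86.2 to 130 (1.11, adjusted p = 0.00047). Decorin (Dcn) and lumican (Lum) did not pass (adjusted p = 0.78 and 0.95). In other lists the cell cycle inhibitor Cdkn1a was at 29.9 to 35 and at 64, 137, 180, 93.2 and 263 (2.00, adjusted p = 0.0026), the replication helicase subunit Mcm5 at 4.78 to 5.66 and at 8.83 to 17.8 (1.21, adjusted p = 0.0039), and the lipase Lipe at 16.5 to 24.3 and at 34.4 to 62 (1.17, adjusted p = 0.00033).

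Calls depended on transcript length. Among the 16407 genes with a length in GENCODE M21, the bin of the shortest genes (median 563 nt) held 57 higher and 310 lower of 1641, and the bin of the longest (7846 nt) 457 higher and 113 lower of 1641. Across genes, which are not independent replicates, Spearman's rho between change and length was 0.17, and in single mid-dose libraries against the control mean it was 0.23, 0.08, 0.17, 0.26 and 0.15. The part of length in the gene lists was not tested.

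**Figure D4:**
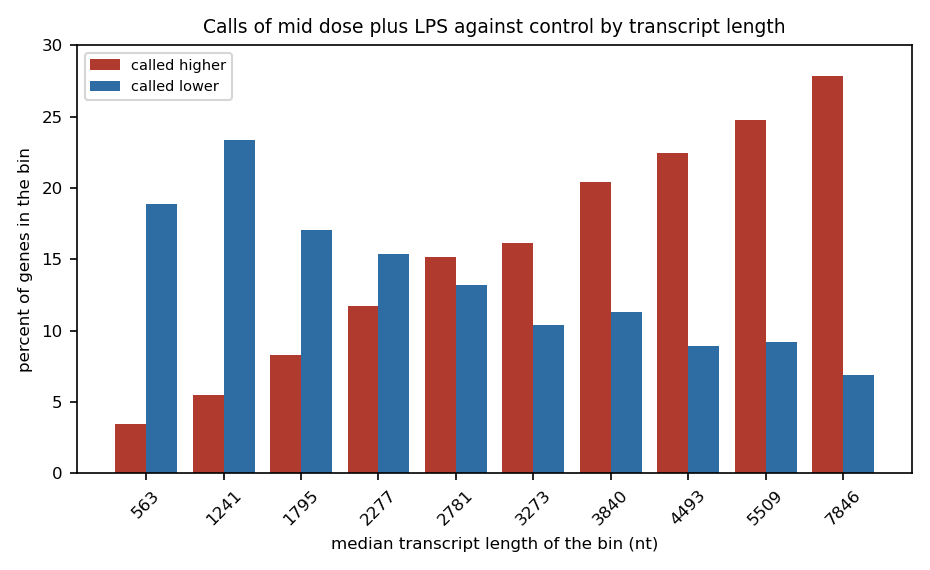
Percent of genes called higher (red) and lower (blue) in 10 bins of transcript length, labelled on the x axis by the median length of the bin in nucleotides. Calls of lower expression are the more frequent kind in the 4 shortest bins and calls of higher expression in the 6 longest.

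The difference between the mid dose and LPS alone is the value that bears on the extract at this dose. None of the 17823 genes passed (0.0%) in the test of mid dose against LPS alone (limma, smallest adjusted p = 0.178). An unadjusted p under 0.05 was reached by 532, fewer than that threshold gives by chance over 17823 genes. Over all genes the 95% interval of the difference reached a median of 0.35 to either side on the log2 scale and 0.80 at the 90th percentile. These are unadjusted intervals of single genes, so differences larger than them could also miss the adjusted threshold. A p that misses the threshold does not show that the groups act alike. Among the genes described above, Scgb1a1 differed by 0.05 (95% interval -0.55 to 0.66), Slc7a11 by 0.52 (-0.19 to 1.24), Phgdh by -0.14 (-0.52 to 0.25) and Cyp1a1 by 0.13 (-1.01 to 1.27). The interval was wide for Cxcl2 (0.56, -3.84 to 4.96), Il1b (0.24, -2.70 to 3.18) and Saa3 (-0.99, -6.67 to 4.68), whose levels split within both groups. Of the 7 clock genes for which an interval was computed, 3 had one that lay to one side of 0 before correction over all genes. These genes were chosen with earlier results of the data known. Named genes outside the clock had such intervals too, among them Rpl13a (-0.27, -0.45 to -0.10) and Myl7 (1.22, 0.15 to 2.28). Npas2 was at 2.84 ± 0.721 (SD, n = 5) in mid-dose and 5.98 ± 1.9 (SD, n = 5) in LPS lungs (-0.84, -1.31 to -0.36, adjusted p = 1). Bmal1 was at 8.49 ± 3.37 (SD, n = 5) in mid-dose and 15.7 ± 4.78 (SD, n = 5) in LPS lungs (-0.84, -1.54 to -0.14, adjusted p = 1), and Dbp at 52.1 ± 42.4 and 14.6 ± 9.92 (1.55, 0.13 to 2.98, adjusted p = 1).

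**Figure D5:**
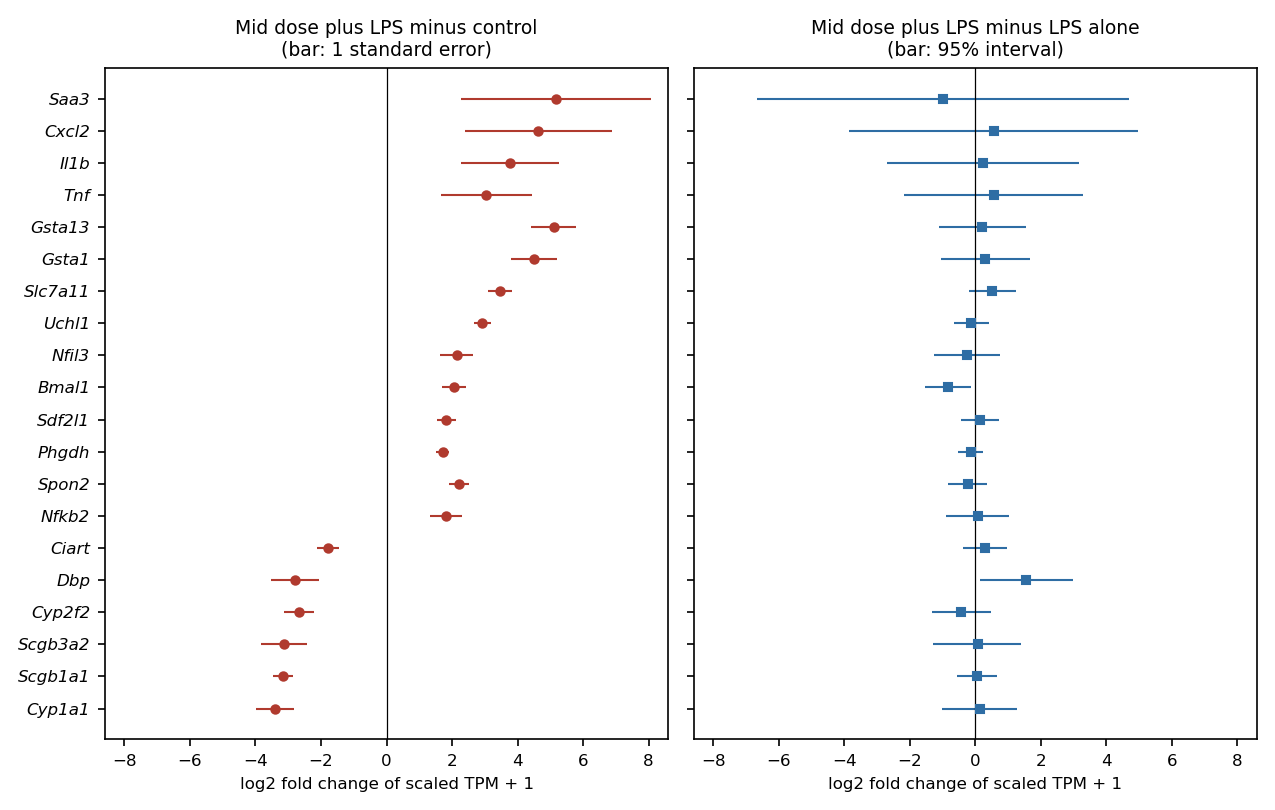
Log2 fold change of 20 genes in mid-dose plus LPS lungs against control (left, bars 1 standard error) and their difference from LPS alone (right, bars 95% interval). Values on the left reach from -3.41 for Cyp1a1 to 5.17 for Saa3, while those on the right lie between -0.99 and 1.55, with the widest intervals for Saa3 and Cxcl2.

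Against the low dose no gene passed either (0.0%, limma, smallest adjusted p = 0.223), with 2200 at an unadjusted p under 0.05. Scgb1a1 was at 44200 ± 14300 (SD, n = 5) at the mid and 66200 ± 17000 (SD, n = 5) at the low dose (-0.63, 95% interval -1.24 to -0.02, adjusted p = 0.39). Against the high dose 644 genes (3.61%) were higher and 702 (3.94%) lower at the mid dose. C7, a terminal complement component, was at 85.7 to 119 at the mid and 31.6 to 52.4 at the high dose, with no overlap (1.10, SE 0.15, adjusted p = 0.0017). Pdgfrb, a pericyte receptor, was at 41.6 to 62.1 and 21.5 to 32.3 (0.80, adjusted p = 0.0023), Notch3, a receptor of the same cells, at 25.6 to 33.3 and 9.78 to 23.2 (1.04, adjusted p = 0.0037), and Spon2 at 12.1 to 30.9 and 6.46 to 18 (1.10, adjusted p = 0.025). The ribosomal protein Rpl13a was lower, at 1750 to 2170 against 2860 to 3630 (-0.62, adjusted p = 0.0017), as was the ribosome factor Nsa2, at 57 to 65.5 against 85.8 to 103 (-0.57, adjusted p = 0.0017). Of 18 fibroblast and matrix genes 4 were higher at the mid dose (median 0.59), and no cytokine, chemokine, neutrophil or clock repressor gene passed.

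The calls against the high dose moved with length and with single libraries. Spearman's rho between difference and transcript length was 0.32, with 7 higher and 129 lower among the 1641 shortest genes and 216 higher and 12 lower among the 1641 longest, and its part in the calls was not tested. The count of 1346 fell to 389 without mid-dose library 4, 728 without mid-dose library 3, 431 without high-dose library 5 and 595 without high-dose library 3, rose to 2959 without high-dose library 1, and was 0 in a fit of these 2 groups alone.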

How the data were processed

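Lung RNA of 24 mice was sequenced after ribosomal RNA removal. The authors deposited 1 table of TPM for 78298 genes, of which 21883 have no symbol. Per the submitters' processing notes HISAT2, StringTie, RSEM, DESeq2 and the build GRCm39 were used, with versions not given in the sources used here. Read counts were not used here, so depth and counting error are unknown.

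TPM were divided by a median-of-ratios factor from 18673 genes above 0 in all 24 libraries, and log2(scaled TPM + 1) was tested for 17823 genes with a deposited TPM of at least 1 in at least 4 libraries. limma 3.58.1 in R 4.3.3 (trended, robust) fitted 1 mean per group over all 24 libraries, with Benjamini-Hochberg adjustment and a threshold of 0.05, and adjusted p-values in the text come from it. The scripts were tested on simulated data. Single values were compared by exact permutation tests, 3 in all, with Benjamini-Hochberg adjustment over them. The limma p-values weigh a difference of means against the spread between libraries, moderated and pooled over all 24. Permutation p-values rank a difference of means among the 126 assignments of the 9 libraries.

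Genes were named by rule: the 10 largest called changes each way with a mean of at least 1 and no overlap, the 3 largest called changes of each list (the 2 most abundant members where none was called), a fixed set, and the smallest p-values against the other challenged groups. Some genes are not reported here. Other list members were named after their values were seen. The members and lists were chosen with earlier results of these data known. Alternatives covered scaling, pseudocount, filter, samples fitted, quality weights, replicate block, fold threshold and leaving out libraries. Promoters are RefSeq windows of GRCm38.p6, and no coordinates of the files were used with them.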

Additional observations from a re-analysis of the deposited data

Results flagged for a closer look

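In 13 of 287 groups of libraries the highest or lowest library stood apart from the others (Dixon's test). Chance gives about 5 percent, so the flags are no more frequent than chance would give. The scaled TPM of the library standing apart follow, with no test of a cause. In mid-dose lungs, library 5 was high for Lif (8.57) and Zbtb46 (13), library 3 for Oasl1 (23.1) and Stat2 (75.1), and library 4 for Phgdh (36.2) and the muscle genes Ckm (23.3) and Myl7 (465), while library 2 was low for Atp1b1 (198). In controls, library 4 was high for Bcl3 (11) and Myl7 (663), library 2 for Mcm5 (5.66), and library 1 for Ddx3y (0.0307). Control library 3 was high for Prg4 (1.26).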

How the results depend on the processing

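Of 119 called named genes, 56 were called in all 18 settings. Genes higher and lower against control were 9507 and 262 in the TPM as deposited, 4455 and 3879 with quality weights, 476 and 437 at an absolute change of at least 1, and 1755 to 2884 and 1455 to 2600 when 1 library was left out. In the TPM as deposited the sign turned for Ctnnb1 (0.205), Atp1b1 (0.054), Xist (0.566), Ube2d2a (0.313), Znhit3 (0.098), Rpl13a (0.250) and Nsa2 (0.337). Against LPS alone 1 gene was called in a fit of the 2 groups and 0 to 2 when 1 library was left out. Against the low dose 1 was called in a fit of the 2 groups, 1 in the TPM as deposited and 441 with quality weights. Against the high dose 0 were called in a fit of the 2 groups, 3311 in the TPM as deposited, 503 without a filter, 4980 with quality weights, 39 at an absolute change of at least 1, 389 to 2959 when 1 library was left out and 115 without mid-dose libraries 1 and 4, a setting chosen after seeing the data. The causes were not tested. Deviations of same-numbered mid-dose and control libraries were weakly correlated (r = 0.071, 0.148, 0.057 and 0.117). Each of these was the highest r of its control library, and all other pairs lay between -0.106 and 0.052. Libraries may thus share something by replicate number, which was not tested, and the main fit does not pair them. With a replicate block the counts were 2394 higher and 2160 lower against control, 1 against LPS alone, 0 against the low dose and 1248 against the high dose. Depth is unknown, so its limit on low genes could not be measured.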

Other observations

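Gene families outside the lists, chosen after the data were seen, moved as follows against control, where 14.7% of all genes were called higher and 13.4% lower. Of 20 aminoacyl-tRNA synthetases, which charge transfer RNAs, 12 rose and none fell (median 0.50; 20 rose in the TPM as deposited). Of 13 mitochondrially encoded mRNAs 12 fell (median -1.17; 5 fell in the TPM as deposited). Of 100 respiratory chain and ATP synthase genes 2 rose and 43 fell (median -0.43), but 34 rose and 1 fell in the TPM as deposited. Of 83 cytosolic ribosomal protein genes 40 fell (median -0.38), whereas 39 rose and 2 fell in the TPM as deposited, and 68 were lower than at the high dose. Of 26 glutathione transferases 2 rose and 10 fell (median -0.43; 9 rose and 1 fell in the TPM as deposited), with changes from -1.22 to 5.10. Of 2726 long noncoding RNAs 93 rose and 453 fell, the falls a share near the 13.4% of all genes called lower, and in the TPM as deposited 451 rose and 113 fell.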
